A study of Pinus pinaster with 24 samples.

Results

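The tissues compared here are the root cap and the developing cortex of maritime pine (Pinus pinaster) root tips, in seedlings given water only. The comparison takes the 3 root cap and 3 developing cortex libraries whose titles mark them as controls, 6 of the 24 libraries of the series, and pairs them by the experiment numbers 1, 3 and 4 in those titles. No ammonium library entered. Seedlings of the Segura-Alcaraz provenance, about 1 month old, had been kept on a nutrient solution without nitrogen before they were watered, so nitrogen was withheld from both tissues alike. Tips were taken 24 h after 80 mL of water, and each region was cut by laser from frozen sections of 30 µm. The labels describe the regions as approximate. They give neither the number of seedlings behind each library nor whether tissues with the same number came from the same roots, so the spread that p-values rest on here may be partly technical. The 3 meristem and 3 developing vessel libraries from watered seedlings served to estimate the spread and to place the 2 tissues within the root tip.

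The root cap covers the tip of the root. It shields the meristem, perceives gravity, secretes mucilage and renews itself by shedding its outer cells. The developing cortex is the ground tissue behind the meristem, whose cells enlarge and later store reserves and carry water and ions between the root surface and the vascular tissue. In conifer root tips cap and cortex arise next to each other from a common zone of initials, without the sharp boundary seen in many flowering plants.

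Values are read counts divided by a library scaling factor, and transcripts are named by identifier only. No gene name could be paired with any of them, so no pathway or marker list could be used and the tissue labels could not be checked against known markers. Depth was 75449000 to 88269000 recovered reads in root cap libraries and 74383000 to 77715000 in cortex libraries. The floor was set at 3 reads, which corresponded to a value of 0.0327 to 0.0431 in root cap and 0.0415 to 0.043 in cortex. Amplified reads are not independent molecules, so this floor covers counting error only. Neighbouring identifiers were often called together, so counts of transcripts are not counts of independent genes.

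The root cap, cortex and meristem libraries of experiment 4 stood closer together than those of experiments 1 and 3. Across the 45391 tested transcripts, the correlation of log2(value + 1) between root cap and cortex was 0.819 in experiment 1, 0.861 in experiment 3 and 0.933 in experiment 4. Root cap libraries correlated with each other at 0.929 to 0.936 and cortex libraries at 0.933 to 0.959, so the root cap library of experiment 4 was as near to the cortex library of its own experiment as to the other root cap libraries. The cortex library of experiment 4 also correlated at 0.920 with the meristem library of that experiment and at 0.814 and 0.831 with those of experiments 1 and 3, whereas the other cortex libraries correlated with meristem at 0.708 to 0.816. Several results, among them the number of transcripts that differed, are given with and without experiment 4. Others are given only with experiment 4 included. What sets its libraries apart was not tested.

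Root cap and cortex each had a large set of transcripts at a higher level than the other tissue. By limma on log2(value + 1), with the experiment number as a block and a Benjamini-Hochberg adjusted p under 0.05, 6668 of 45391 transcripts differed (14.7%), in 3807 runs of consecutive identifiers. Of these, 3286 (7.24% of those tested) were higher and 3382 (7.45%) were lower in root cap than in cortex. The 2 directions were thus nearly balanced. A log2 difference of at least 1 was reached by 4208 called transcripts (9.27%), 2090 (4.60%) higher and 2118 (4.67%) lower in root cap. These are called the root cap set and the cortex set below. At least 2 on the log2 scale was reached by 702 (1.55%) higher and 718 (1.58%) lower. The greatest differences were 8.30 and -7.63. Because log2(value + 1) was used, these fold changes understate those of low transcripts. A lower value in a cut region may reflect fewer cells of a type or less RNA per cell, which cannot be told apart.

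The number of calls rested strongly on single libraries. Without experiment 1 it was 1106 (710 higher and 396 lower in root cap), without experiment 3 it was 632 (522 and 110) and without experiment 4 it was 9428 (4579 and 4849), so the balance of directions did not hold without experiment 1 or 3. Without the root cap library of experiment 1, 3 or 4 it was 3525, 2395 or 6206, the last near the number of the main fit. Without the cortex library of experiment 1, 3 or 4 it was 2685, 2164 or 13024. A fit of the 6 libraries alone gave 1076 (716 higher and 360 lower).

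**Figure D1:**
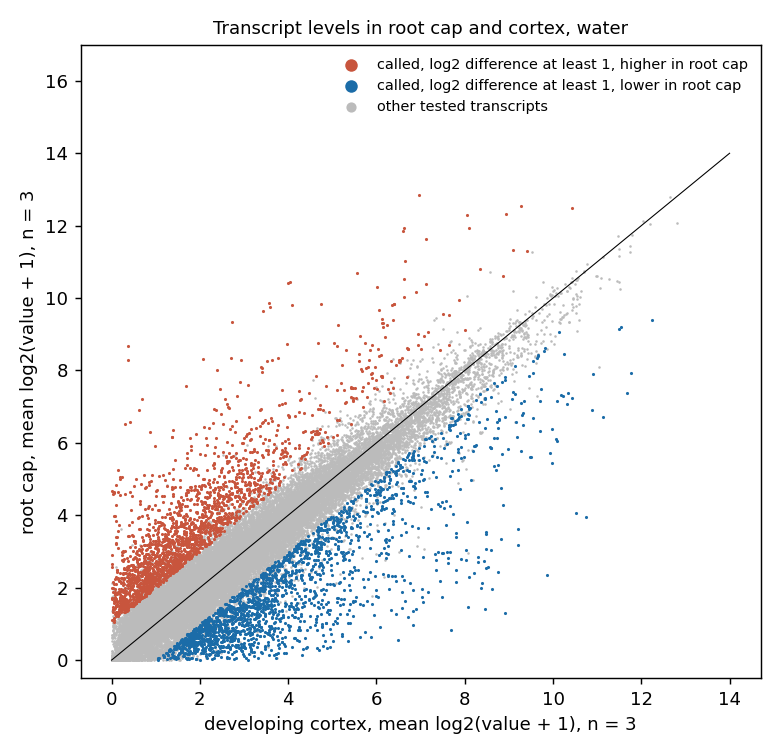
Mean log2(value + 1) of each tested transcript over 3 root cap libraries (vertical axis) against 3 developing cortex libraries (horizontal axis). The line marks equal levels, and coloured points are the 2090 transcripts of the root cap set, above it, and the 2118 of the cortex set, below it.

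In the main fit most transcripts were at similar levels on the log2(value + 1) scale. For 29662 transcripts (65.35% of those tested) the 95% interval of the log2 difference lay within -1 to 1. Another 9609 (21.17%) were neither called nor bounded in this way, so that a difference of 2-fold could not be told from none. The median size of the log2 difference, whatever its sign, was 0.317, and the median half-width of the interval was 0.45. Adding 1 before the log narrows the differences of low transcripts. With 0.1 added in place of 1, 21300 transcripts were bounded, and without experiment 3 it was 22244. Neither is a majority of the 45391 tested. The number without experiment 4 was 23524, a narrow majority.

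Called transcripts were more frequent among abundant ones. Among transcripts with a mean value of 100 or more over the 6 libraries, 462 of 1832 (25.2%) were called, against 1890 of 11228 (16.8%) between 10 and 100, 4049 of 28059 (14.4%) between 1 and 10 and 267 of 4272 (6.25%) under 1. The abundant class also held the smallest share of bounded transcripts, 51.1%, against 61.1%, 67.9% and 66.1% in the lower classes. In the class of 100 or more, the root cap set had 135 members and the cortex set 193. The classes use the same 6 libraries as the calls, so a high value in either tissue raises the class. Adding 1 before the log also narrows differences in the lowest class. These shares are therefore a description.

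The lists of the most abundant transcripts overlapped less the shorter they were. Of the 10 transcripts with the highest mean in root cap and the 10 with the highest mean in cortex, 3 were the same (30% of each list). Of the root cap 10, 6 belonged to the root cap set and 0 were bounded, while of the cortex 10, 3 belonged to the cortex set and 3 were bounded. Of all tested, 4.60% belonged to the root cap set, 4.67% to the cortex set and 65.35% were bounded. Ranking by the mean of a tissue favours members of its set, so these counts are a description. Of the 100 highest, 33 in root cap and 20 in cortex belonged to the set of their tissue. Of the 1000 highest it was 138 and 174. Of the 100 highest in each tissue 56 were shared, and of the 1000 highest 744 (74.4% of each list).

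The most abundant root cap transcript was pp_188972, which had rank 1 by mean in root cap and rank 1251 in cortex. It held 7080, 15800 and 3520 in the root cap libraries of experiments 1, 3 and 4, against 272, 52.6 and 134 in the cortex libraries. All 3 root cap libraries were above all 3 cortex libraries, which the rule for choosing named transcripts required. Over all tested transcripts this held for 14.3%, and 15.8% lay apart the other way. The transcript took 0.721%, 1.46% and 0.366% of the summed value of those root cap libraries, highest in experiment 3 and lowest in experiment 4. The means were 8800 ± 6320 in root cap and 153 ± 111 in cortex (SD, n = 3 each), which differed by 5.87 on the log2 scale (SE 0.69, adjusted p = 0.00161 by limma). That SE pools the spread of all 12 water libraries. A limma fit of the 6 root cap and cortex libraries alone gave an SE of 0.79 and an adjusted p of 0.0424. The transcript was not confined to the cap: the meristem libraries held 570, 1090 and 1040, above every cortex library, and the vessel libraries 0.283 to 2.18. Of the 20 other listed identifiers within 10 of its number, 7 were also called higher in root cap, as were 7.24% of all tested.

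The widest gap was that of pp_114011. Its values were 203, 1250 and 263 in the root cap libraries of experiments 1, 3 and 4, against 0.545, 0.292 and 0.0831 in the cortex libraries. These cortex values correspond to 38, 21 and 6 reads, above the floor of 3 reads but of little weight beside 15818, 86893 and 24093 reads in root cap. Root cap means of 572 ± 588 and cortex means of 0.307 ± 0.231 (SD, n = 3 each) differed by 8.30 on the log2 scale (SE 0.48, adjusted p = 0.00021 by limma). That SE pools the spread of all 12 water libraries. In experiments 1, 3 and 4 the difference was 7.04, 9.92 and 7.93. A limma fit of the 6 root cap and cortex libraries alone gave an SE of 0.57 and an adjusted p of 0.0286. The meristem libraries held 0, 0.13 and 0, and all 3 vessel libraries were listed at 0. Among the 4 water tissues this transcript was thus high in root cap alone, although the SD in root cap was as large as the mean.

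On the cortex side the widest gap was that of pp_245636. Root cap libraries of experiments 1, 3 and 4 held 0.115, 0.0719 and 11.4, against 602, 359 and 526 in cortex libraries. The cortex libraries were close to each other, whereas the root cap library of experiment 4 stood far above the other root cap libraries. The means were 3.85 ± 6.51 in root cap and 496 ± 125 in cortex (SD, n = 3 each), which differed by -7.63 on the log2 scale (SE 1.497, adjusted p = 0.0125 by limma). The meristem library of experiment 4 held 56.1, against 0.209 and 0.152 in experiments 1 and 3, and the vessel libraries held 62.4, 12.2 and 2.44. The call ended without experiment 1 (limma adjusted p = 0.102) or 3 (0.199), without the root cap library of experiment 3 (0.0565) or the cortex library of experiment 1 (0.0563) or 3 (0.0634), and with edgeR on recovered reads (0.0521). Over all its alternatives the adjusted p ran from 6.72e-07 to 0.199, and the difference was -8.74 without experiment 4. Of the 13 other listed identifiers within 10 of its number, 10 were called lower in root cap as well, as were 7.45% of all tested.

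The most abundant member of the cortex set, pp_66604, had rank 68 by mean in root cap and rank 3 in cortex. It held 377, 278 and 2810 in root cap libraries of experiments 1, 3 and 4, against 5530, 4210 and 4840 in cortex libraries. Its root cap value in experiment 4 was again far above the other root cap libraries, though below each cortex library, as the rule of choice required. The means were 1160 ± 1440 in root cap and 4860 ± 659 in cortex (SD, n = 3 each), which differed by -2.86 on the log2 scale (SE 0.58, adjusted p = 0.0139 by limma). Vessel libraries held 1960, 1630 and 2510 and meristem libraries 240, 315 and 1200. The order of means was cortex, vessels, root cap and meristem. The root cap mean lay closer to both the vessel and the meristem mean than the SD of root cap. Its value of 2810 in experiment 4 was above every vessel library. By limma the adjusted p was 0.166 or 0.239 without experiment 1 or 3, and 0.124 in the fit of the 6 libraries. It was 0.056 or 0.0661 without the root cap library of experiment 1 or 3 and 0.0659 or 0.0739 without the cortex library of experiment 1 or 3. Over all its alternatives the adjusted p ran from 3.76e-05 to 0.239. Without experiment 4 the difference was -3.90 (limma adjusted p = 0.00109).

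**Figure D2:**
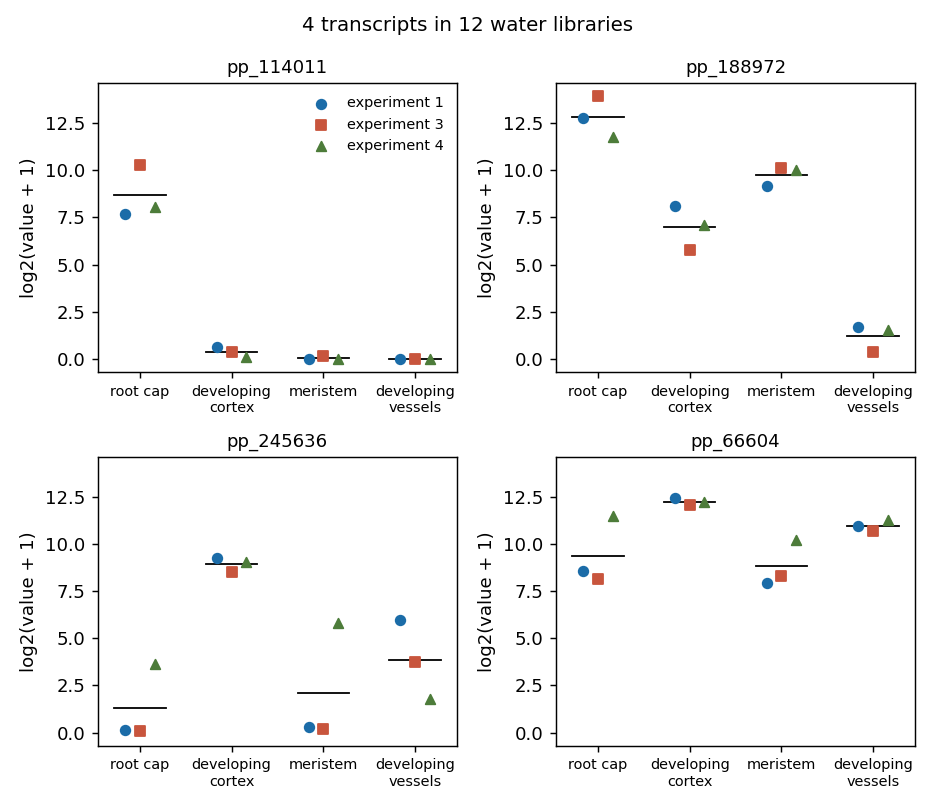
log2(value + 1) of pp_114011, pp_188972, pp_245636 and pp_66604 in each of the 12 water libraries, by tissue. Points are libraries, shaped by experiment, and lines are means of 3 log2 values. The root cap and meristem libraries of experiment 4 lie above those of experiments 1 and 3 for both cortex transcripts in the lower row.

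The differences within each experiment were of unequal size, and had the same sign in all 3 experiments for 23315 transcripts (51.4%). Over all tested transcripts the log2 difference had an SD of 1.12 in experiment 1, 0.971 in experiment 3 and 0.657 in experiment 4. Across transcripts, which are not independent replicates, the differences of experiments 1 and 3 correlated at 0.706, those of 3 and 4 at 0.723 and those of 1 and 4 at 0.459. A log2 difference of at least 1 with the same sign in all 3 pairs was found for 1921 transcripts (4.23% of those tested), 1070 (2.36%) higher and 851 (1.87%) lower in root cap. Of these, 1841 (95.8%) were also called, against 14.7% of all tested. Both rules use the same root cap and cortex libraries, so a high overlap is built into the choice.

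Transcripts called from any pair of experiments were next looked up in the experiment left out, whose libraries had no part in the calling beyond the filter on low values. Experiments 3 and 4 called 710 transcripts higher (1.56%) and 396 lower (0.872%) in root cap. In experiment 1, 96.8% of those higher and 88.6% of those lower had the same sign, against 51.4% and 48.4% of all tested transcripts. Their median log2 differences there were 1.89 and -1.68.

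Experiments 1 and 4 called 522 higher (1.15%) and 110 lower (0.242%). In experiment 3, 521 and 109 of them (99.8% and 99.1%) had the same sign, against 52.6% and 47.1% of all tested, and 92.5% and 95.5% reached a log2 difference of at least 1, against 7.37% and 8.40% of all tested. The median differences in experiment 3 were 2.60 and -2.78, larger in size than those in the experiments used for calling (2.38 and -2.23).

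Experiments 1 and 3 called far more, 4579 higher (10.1%) and 4849 lower (10.7%). In experiment 4, 86.8% and 85.3% of them had the same sign, against 49.9% of all tested in each direction, and 27.2% and 17.2% reached a difference of at least 1, against 4.35% and 3.84% of all tested. The median difference was 0.401 and -0.369 in experiment 4, against 1.28 and -1.29 in the experiments used for calling. Direction was therefore shared by the 3 experiments for most of these transcripts, while the size in experiment 4 was smaller than in the others.

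**Figure D3:**
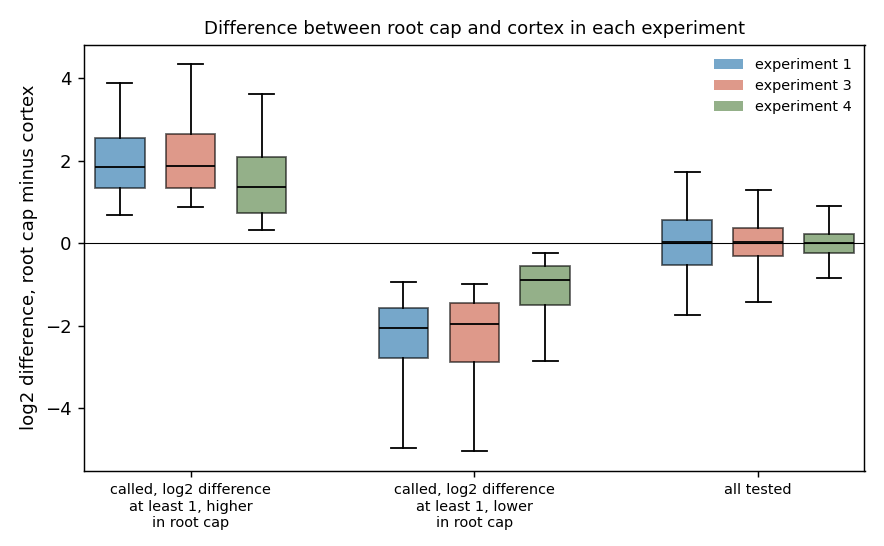
Log2 difference of root cap minus cortex within each experiment for the root cap set (2090 transcripts), the cortex set (2118) and all 45391 tested. Boxes span the quartiles with the median as a line, and whiskers the 5th to 95th percentiles. In the cortex set the medians were -2.05, -1.94 and -0.887 in experiments 1, 3 and 4.

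Levels are given for the transcripts called from experiments 1 and 3 with a log2 difference of at least 1. They were chosen for a wide gap in those experiments, so a narrower gap in experiment 4 is in part built into the choice, and the values are a description. The 3488 that were lower in root cap had a median log2(value + 1) of 2.71 in the root cap library of experiment 4, against 1.82 and 1.98 in the root cap libraries of experiments 1 and 3. In the cortex library of experiment 4 their median was 3.37, against 3.93 and 3.88 in the other cortex libraries. They took 12.2% of the summed value in the root cap library of experiment 4, against 6.17% and 7.07% in the other root cap libraries, and their median was likewise higher in the meristem library of experiment 4 (2.35) than in those of experiments 1 and 3 (1.53 and 1.79). The 3167 that were higher in root cap had medians of 3.44, 3.31 and 2.82 in root cap libraries and 1.43, 1.65 and 1.78 in cortex libraries of experiments 1, 3 and 4.

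The part of the transcriptome carried by these sets was substantial in both tissues. Summed over the root cap set, transcripts took 14.3%, 21.8% and 9.86% of the value of the root cap libraries of experiments 1, 3 and 4, against 2.19%, 2.14% and 1.62% of the cortex libraries. The cortex set took 2.35%, 2.28% and 5.10% of the root cap libraries, against 15.3%, 14.9% and 11.2% of the cortex libraries. Since the sets were chosen for this difference, these shares describe its weight and test nothing. Most members were above the floor of 3 reads in at least 1 library of the other tissue, though often at low levels. How many were above it in every library of the other tissue was not counted. Only 14 members of the root cap set had 3 reads or fewer in all 3 cortex libraries. In the cortex set 5 had 3 reads or fewer in all 3 root cap libraries. The mean value in the other tissue was under 1 for 674 of the 2090 root cap set members and 642 of the 2118 cortex set members.

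The number of transcripts detected depended on the level asked for. A value of at least 1 was found for 39805, 39468 and 39885 transcripts in root cap libraries of experiments 1, 3 and 4, against 37511, 38872 and 39627 in cortex libraries. Root cap averaged 39720 ± 221 and cortex 38670 ± 1070 (SD, n = 3 each), a difference that did not pass the test (exact permutation p = 0.2, 2-sided, where 3 libraries against 3 cannot go below 0.1). At a value of at least 0.1 the direction turned, with 45210 ± 136 in root cap and 45690 ± 422 in cortex (SD, n = 3 each, exact permutation p = 0.2). At a value of at least 5 the root cap libraries held 19863, 20150 and 19922 transcripts, against 19743, 19802 and 19399 in cortex, and the tissues did not overlap (exact permutation p = 0.1, the lowest these libraries can give). The 100 most abundant transcripts took 20.1%, 22.9% and 17.4% of the summed value in root cap, against 17.7%, 17.3% and 18.1% in cortex (exact permutation p = 0.3, 2-sided).

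The meristem and vessel libraries entered the choice of the sets only through the filter, the block and the estimate of the spread. Median log2(value + 1) of the root cap set was 3.34 in root cap, 1.51 in cortex, 1.31 in meristem and 0.722 in vessels. That of the cortex set was 1.56 in root cap, 3.58 in cortex, 1.64 in meristem and 2.66 in vessels. Over all tested transcripts these medians ran from 2.22 to 2.30. By these medians the root cap set was lowest in vessels and the cortex set intermediate there, but neither order held in every set made with an experiment left out. In the cortex set made without experiment 1, medians were 3.13, 3.55 and 3.26 in cortex libraries of experiments 1, 3 and 4 and 3.22, 3.79 and 3.68 in vessel libraries. In the root cap set made without experiment 4, medians were 1.43, 1.65 and 1.78 in cortex libraries and 1.67, 1.55 and 1.67 in vessel libraries.

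**Figure D4:**
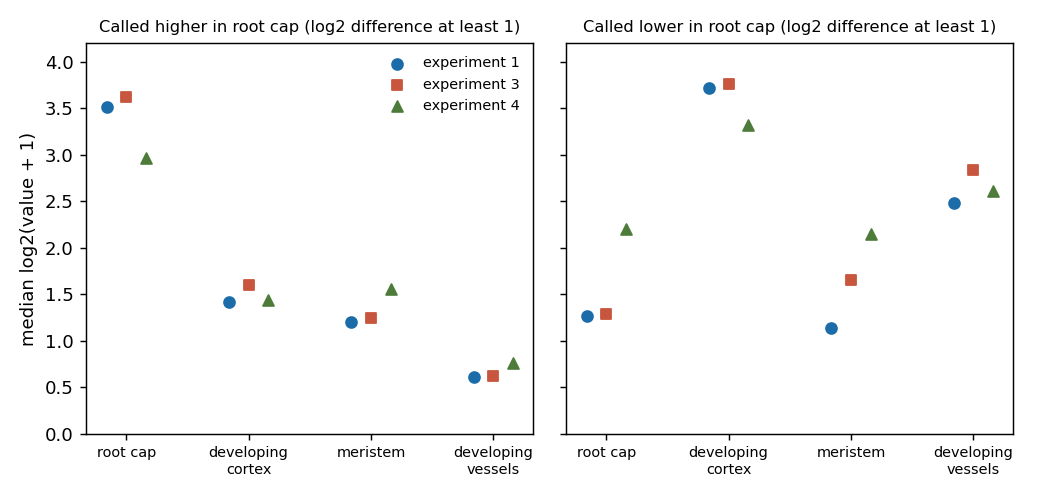
Median log2(value + 1) of the root cap set (left) and the cortex set (right) in each of the 12 water libraries, by tissue and experiment. The cortex set lies at 2.20 in the root cap library of experiment 4, against 1.27 and 1.29 in the other root cap libraries.

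Of the root cap set, 1498 (71.7%) had their highest mean among the 4 tissues in root cap, 485 (23.2%) in meristem and 107 (5.12%) in vessels. Of all tested transcripts, 15.7% were highest in root cap, 25.2% in cortex, 33.8% in meristem and 25.3% in vessels. Of the cortex set, 1619 (76.4%) were highest in cortex, 498 (23.5%) in vessels and 1 in meristem. Members were chosen for a gap between root cap and cortex. No root cap set member could therefore be highest in cortex, nor any cortex set member in root cap. The choice also favours the tissue of the set, so its share beside that of all tested is a description and tests nothing. By experiment, the share of the root cap set highest in root cap was 73.7%, 76.4% and 64.7%, and that highest in meristem 22.3%, 20.0% and 27.1%. The share of the cortex set highest in cortex was 82.5%, 74.8% and 66.1%, and that highest in vessels 17.1%, 25.2% and 32.8%.

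The share of a set highest in its own tissue differed between sets made with different experiments, and these sets also differed in size. In the root cap set made without experiment 4 (3167 members), 51.8% were highest in root cap. Without the cortex library of experiment 4 (3196 members) it was 43.7%. The 3167 transcripts called higher in root cap without experiment 4 had medians of 2.57, 2.46 and 2.40 in the meristem libraries of experiments 1, 3 and 4, above their medians in the cortex libraries. The share highest in root cap was 91.5% or 95.2% in sets made without experiment 1 (708 members) or 3 (522). For the cortex set the share highest in cortex was 38.9% without experiment 1 (396 members), 57.3% without experiment 3 (110) and 88.3% without experiment 4 (3488). Whether the shares followed the size of the set or the experiment left out was not tested.

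Calls against the other tissues are given side by side, since these comparisons share root cap or cortex libraries with the one that made the sets. Of the 2090 root cap set transcripts, 1372 were called higher in root cap than in meristem, against 16.9% of all tested, and 1587 higher in root cap than in vessels, against 15.0%. In the same set of 2090, 704 were called lower in cortex than in meristem, against 12152 of all 45391 tested (26.8%). Another 675 were called higher in cortex, against 13138 (28.9%). The set was chosen for cortex values below those of root cap, which favours the calls of lower in cortex. Of the 2118 cortex set transcripts, 1897 were called higher in cortex than in meristem, against 28.9% of all tested, and 1021 higher in cortex than in vessels, against 15.9%. In that set 892 were called lower in root cap than in vessels, against 16.7%. Levels above both meristem and vessels were called for 1269 transcripts of the root cap set in root cap, against 9.52% of all tested, and for 998 of the cortex set in cortex, against 13.0%.

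A smaller group of 439 transcripts was called in the same direction in the fit of all 3 experiments and in each fit that left one experiment out. Of these, 373 (0.822% of those tested) were higher and 66 (0.145%) lower in root cap. The 373 fell into 242 runs of consecutive identifiers and had a median log2 difference of 2.67. Their median log2(value + 1) was 4.16, 4.81 and 4.00 in root cap libraries of experiments 1, 3 and 4, against 1.48, 1.82 and 1.27 in cortex libraries, and 0.102 to 0.257 in the meristem and vessel libraries. Of the 373, 359 were highest in root cap. By their medians these transcripts were next highest in cortex. By their share of the summed value they were not: they took 4.46%, 9.51% and 3.24% of the root cap libraries and 0.302%, 0.256% and 0.183% of the cortex libraries, while the meristem libraries gave 0.323%, 0.514% and 0.651%.

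The 66 cortex transcripts of this group had a median log2 difference of -2.55 and formed 48 runs. Their medians were 0.535, 0.524 and 1.21 in root cap libraries of experiments 1, 3 and 4, against 3.57, 3.83 and 3.42 in cortex libraries. They stood at 2.03, 2.77 and 2.76 in vessel libraries and at 0.461, 1.14 and 1.36 in meristem libraries. Of the 66, 49 were highest in cortex and 17 in vessels. The group was chosen from these libraries, and its levels are a description.

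**Figure D5:**
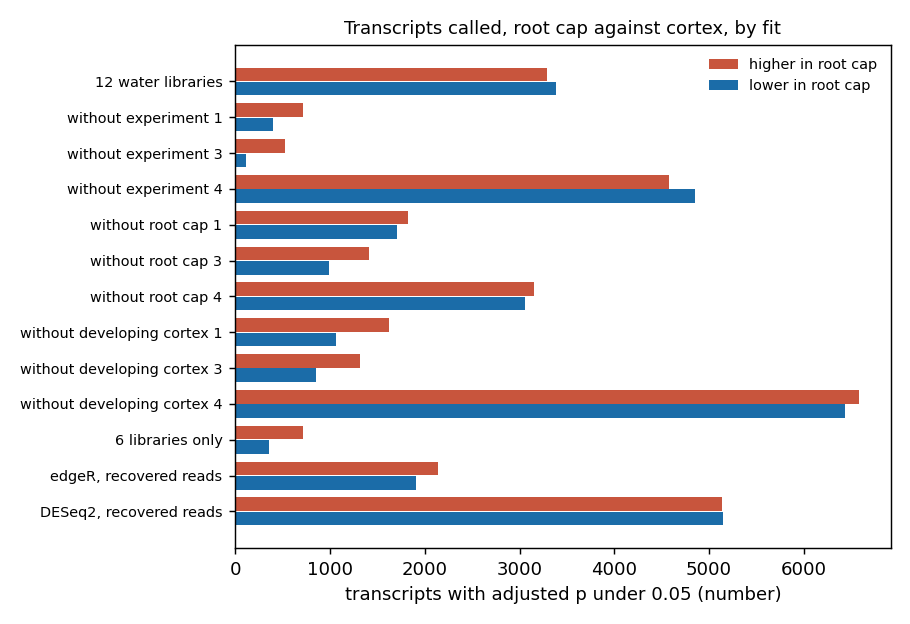
Number of transcripts with an adjusted p under 0.05 that were higher or lower in root cap than in cortex, by fit. The bars run from 522 higher and 110 lower without experiment 3 to 6586 higher and 6438 lower without the cortex library of experiment 4.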

How the data were processed

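Libraries came from laser-cut tissue amplified by SMART-Seq and were read as 150 bp pairs, per the labels' protocols; RNA had an integrity number above 7. The 12 ammonium libraries were not used. The deposited values are a signal: 100% of those in the 12 water libraries fell on whole reads (tolerance 0.01 reads), which were recovered from the spacing of low values. BWA and bcl2fastq are named in the submitters' processing notes. No source used here gives the counting program or reference transcripts. The values were deposited under the name CPM, a scaling by library size, but how the scaling factors were obtained is not given. Summed values differed between the 12 water libraries, from 793680 (meristem, experiment 3) to 1114506 (cortex, experiment 1). The design had allowed for CPM, and the log-scale test was kept for the signal.

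The filter kept 45391 of 47118 transcripts, those reaching a value of 1 in 3 or more of the 12 water libraries, and the same transcripts entered fits that left libraries out. The main test, in R 4.3.3, was limma 3.58.1 (empirical Bayes with a mean trend) on log2(value + 1) over 12 water libraries, 4 tissues and 3 experiments as a block, with 6 residual degrees of freedom. Alternatives used edgeR 4.0.16 and DESeq2 1.42.0 on recovered reads. Of these tests only the main limma fit was run on simulated reads, which were drawn with no effect of experiment. The outcome of that run is not given here. Named transcripts are, in each direction, the one with the greatest difference and the most abundant one at a log2 difference of at least 1, among called transcripts whose libraries did not overlap, at least 10 identifier numbers apart. Figures were drawn with matplotlib 3.10.9. The comparison and its rules were chosen with earlier results of these data known.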

Additional observations from a re-analysis of the deposited data

How the results depend on the processing

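The number of called transcripts, 6668 in all and 4208 with a log2 difference of at least 1, depended on how the spread was estimated. Replicate numbers served as a block because the comparison pairs libraries by experiment. Deviations of same-numbered root cap and cortex libraries correlated at -0.169, 0.438 and 0.187 in experiments 1, 3 and 4, so not every pair was over 0.1, although 16 of 18 same-numbered pairs of different tissues were over 0.1. With no replicate block 5291 were called, 5102 of them among the 6668. The 6 libraries alone gave 1076 (all of at least 1) with the block and 2103 (1944) without it. Library weights gave 16021, edgeR 4046 and DESeq2 10285 (7207 of at least 1), and 3886 were called in the same direction by limma, edgeR and DESeq2. Pseudocount 4 gave 2404 of at least 1. Leaving out an experiment or a library gave 632 to 13024 calls, and 632 to 6655 of at least 1. The number of bounded transcripts stayed within 1.5 times 29662 in all 20 alternatives (21300 to 37812). It was not a majority of those tested with pseudocount 0.1 (21300) or without experiment 3 (22244).

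The share of the root cap set highest in root cap (71.7%) was 93.7% and 82.0% in the 6 libraries with and without block, 56.8% and 81.5% with pseudocounts 0.1 and 4, 60.4% with library weights, 63.0% with edgeR and 50.4% with DESeq2, and 43.7% to 95.2% with libraries left out. For the cortex set (76.4%) it was 62.8% in the 6 libraries with block, 65.3% with edgeR, 64.1% with DESeq2 and 38.9% to 88.3% with libraries left out. Transcripts apart in every experiment numbered 483 at a log2 difference of at least 2, and 2158 to 4759 with an experiment left out, an alternative chosen after seeing the data. The difference in detected transcripts (1050) was -480 at a value of at least 0.1, and 470 to 1530 with a library left out. Calls of pp_114011 and pp_188972 held in all 22 alternatives, that of pp_245636 ended in 6 and that of pp_66604 in 8. The causes were not tested.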
